A study of Mus musculus with 12 samples.

Results

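The genes described here encode the proteasome, its activators and its assembly chaperones, and were measured in T cells from mouse spleen. They were chosen by name: a gene was taken when its symbol begins with Psma, Psmb, Psmc, Psmd, Psme or Psmg and a digit follows. On the array 99 probe sets with a single symbol met this, and they belong to 48 genes of 18193. Of these, 46 are components, activators or chaperones of the proteasome. The other 2, Psmc3ip and Psme3ip1, share only the letters of the name: they encode a recombination factor and a protein that binds the activator PA28γ. The Psme2 probe set carries a second symbol, so it was not a member and is given no value.

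RNA was hybridised to Affymetrix whole-genome mouse arrays, 1 array per sample, and the values are the log2 signals that the authors deposited after RMA normalization. There were 5 arrays of CD8+ NKT-like cells, 3 of cultured CD4+ T cells, 2 of activated CD8+ T cells and 2 of naive CD8+ T cells. All came from the spleens of female C57BL/6 mice, aged 8 to 12 weeks by the labels, with no transgene or deletion. The NKT-like and CD4+ cultures were grown for more than a week with beads carrying anti-CD3 and anti-CD28 and with high-dose IL-2, and are described in the study as independent cultures. NKT-like cells were grown from the whole CD8+ population enriched by negative selection, and CD4+ cells were purified by sorting. The activated CD8+ cells had been stimulated with soluble antibodies to CD3 and CD28 at low dose, and the naive cells were freshly isolated. No naive CD4+ cells were analysed here, and in the comparison of cultured CD4+ with naive CD8+ cells lineage and culture cannot be told apart. All 3 comparisons with naive cells share the same 2 naive arrays.

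The labels were checked against marker genes. Means of 4 T cell markers lay between 10.73 and 12.10 log2 on every array. The 2 CD8 genes averaged 6.46 to 6.97 on cultured CD4+ arrays and 10.27 to 12.22 on the arrays of CD8+ cells. On the stimulated arrays, the mean of 5 B cell markers was 6.15 to 6.78 and that of 5 red cell markers 6.26 to 6.59, against 7.43 to 7.91 and 7.96 to 8.34 on the naive arrays. B cell markers passed as lower in 5 of 5 genes in NKT-like, 4 of 5 in CD4+ cultures and 2 of 5 in activated cells, and red cell markers in 3 of 5 genes in each. Of 3 NK cell markers, Klrd1, which CD8+ T cells also express, passed as lower in CD4+ cultures (log2 -5.76) and activated cells (log2 -3.61) than in naive cells. None of the 3 passed as higher than in naive cells. The highest change from naive cells was log2 2.6 in NKT-like and 0.93 in activated cells, against -0.27 in CD4+ cultures. Of the 3, only Klrd1 passed as higher in NKT-like cells than in CD4+ cultures (log2 5.74) and activated cells (log2 3.59). The mean of the 3 was 8.11 to 9.89 in NKT-like, 6.08 to 6.4 in CD4+ cultures, 7.37 to 7.63 in activated and 8.31 to 8.51 in naive cells. Of 5 myeloid markers, Lyz2 passed as lower in NKT-like (0.671-fold) and CD4+ cultures (0.615-fold), and the mean of the 5 was 6.13 to 6.78 on the stimulated arrays and 6.62 to 6.73 on the naive ones. The part of these cells in the differences below was not tested, and in bulk RNA fewer cells of a type and less RNA per cell cannot be told apart.

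The proteasome is the protease that degrades most ubiquitin-tagged proteins. Its 20S core is a barrel with outer rings of α subunits, which gate the entry, and inner rings of β subunits, of which β1, β2 and β5 carry the active sites. A 19S cap, made of a base with ATPases and a lid, binds and unfolds the substrates. Interferon γ induces alternative catalytic subunits (Psmb9 for Psmb6, Psmb10 for Psmb7 and Psmb8 for Psmb5), which replace the constitutive ones in newly built particles. The immunoproteasome so formed is abundant in lymphoid cells and cuts peptides that suit presentation by MHC class I molecules.

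Against naive CD8+ cells, proteasome genes were higher in each of the stimulated groups. In NKT-like cells 25 of the 48 passed as higher, with 10.7% of all genes called higher, and 0 passed as lower, with 6.86% of all genes called lower. In CD4+ cultures the counts were 33 higher (11.6% of all genes) and 0 lower (5.64% of all genes). In activated CD8+ cells they were 21 higher (4.43% of all genes) and 0 lower (2.78% of all genes). The threshold was a q-value (the estimated share of false calls) of at most 0.01 in a limma fit of the 4 groups over all probe sets. At an unadjusted p under 0.05, members on the lower side numbered 1 in NKT-like, 0 in CD4+ cultures and 0 in activated cells. The share of all genes at that threshold is not given. The median change over the 48 genes was 1.83-fold in NKT-like, 2.35-fold in CD4+ cultures and 2.26-fold in activated cells, where the median of all genes was 0.963-fold, 0.963-fold and 0.967-fold. Of the 48, 15 passed in all 3 comparisons and 12 in none.

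**Figure D1:**
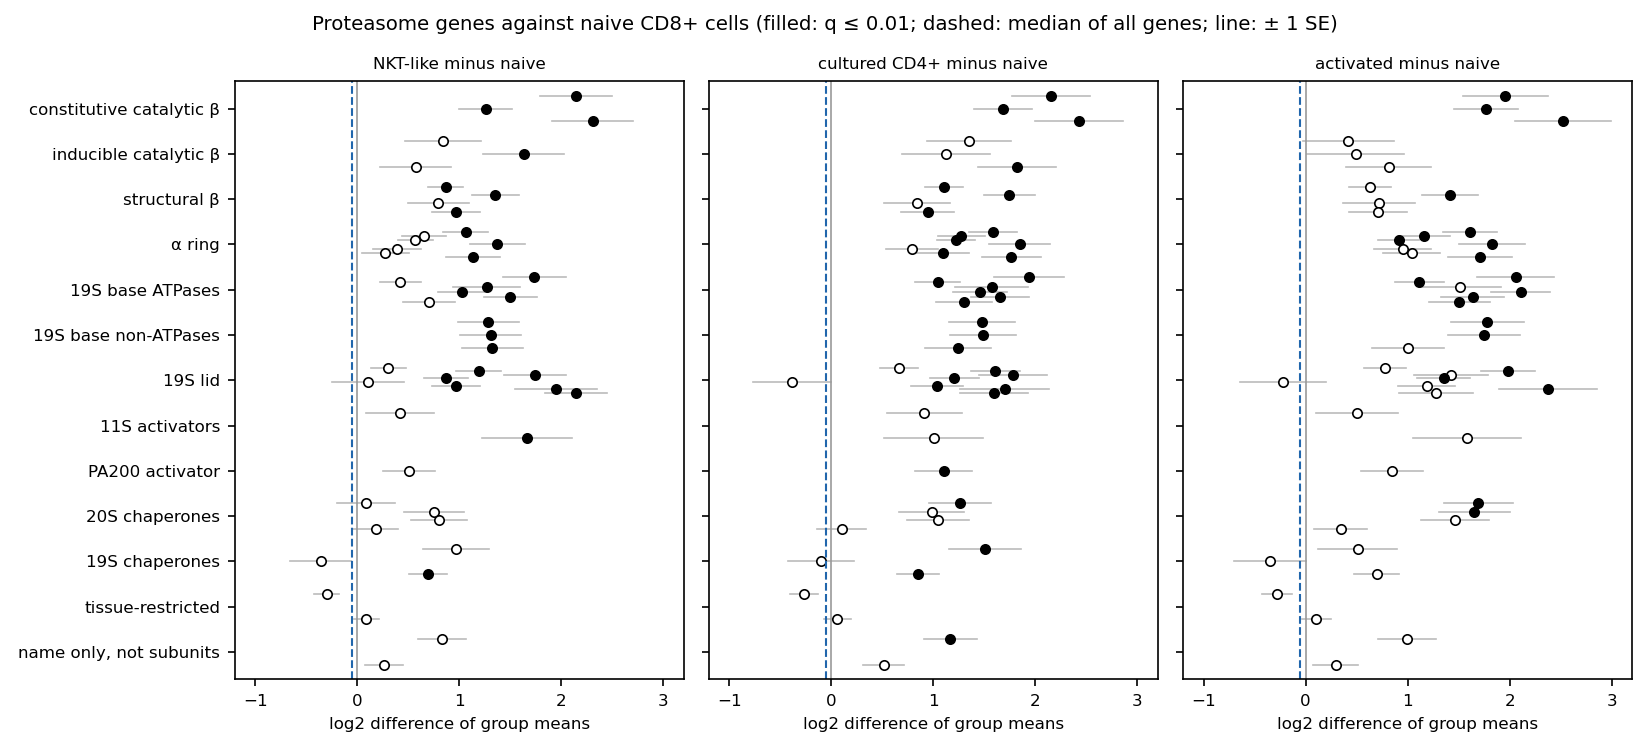
Log2 difference of group means for the 48 genes (points, with 1 standard error either side), by subcomplex, for NKT-like, cultured CD4+ and activated CD8+ cells minus naive CD8+ cells. Filled points passed at q of 0.01 or less, 25, 33 and 21 of them, and all lie to the right of 0; the dashed line is the median of all 18193 genes.

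Leaving out 1 array moved these counts, most of all for naive replicate 2. Without naive replicate 2 they were 1 in NKT-like, 4 in CD4+ cultures and 0 in activated cells, when 2.32%, 3.5% and 0.731% of all genes were called higher. Fewer members, and fewer of all genes, also passed in each group without naive replicate 1 and in activated cells without activated replicate 1. The cultured CD4+ count was 16 without cultured CD4+ replicate 2 and 16 without replicate 3, when 5.81% and 6.15% of all genes were called higher. The activated count was 12 without cultured CD4+ replicate 2, with 3.18% of all genes called higher. Median changes moved less. Without naive replicate 2 they were 1.73-fold in NKT-like, 2.24-fold in CD4+ cultures and 2.18-fold in activated cells. Without naive replicate 1 they were 2.19-fold, 2.67-fold and 2.53-fold in that order, and without activated replicate 1 the activated median was 1.96-fold. With 1 array left in a group, that array was taken to vary like the other groups. Of 80 calls over all comparisons 5 were kept whichever of the 12 arrays was left out: Psmb5 in NKT-like cells, and Psma3, Psmb2, Psmb5 and Psmd12 in CD4+ cultures, each against naive cells.

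The spread of signals also differed between arrays. The standard deviation over all probe sets was 1.95 to 2.03 on 8 of the stimulated arrays, 1.91 on cultured CD4+ replicate 1 and 1.80 on activated replicate 2, against 1.83 and 1.78 on the naive arrays, and most members are bright, with 41 of 48 above the 75th percentile of genes by mean signal. After a further quantile normalization, which makes the spread equal, 13 members passed as higher in NKT-like, 21 in CD4+ cultures and 21 in activated cells, with median changes of 1.48-fold, 1.8-fold and 1.97-fold, and 9.08%, 9.2% and 6.04% of all genes were called higher. When activated and naive arrays were fitted alone, 0 members passed, with 0.308% of all genes called higher and 0.253% lower.

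**Figure D2:**
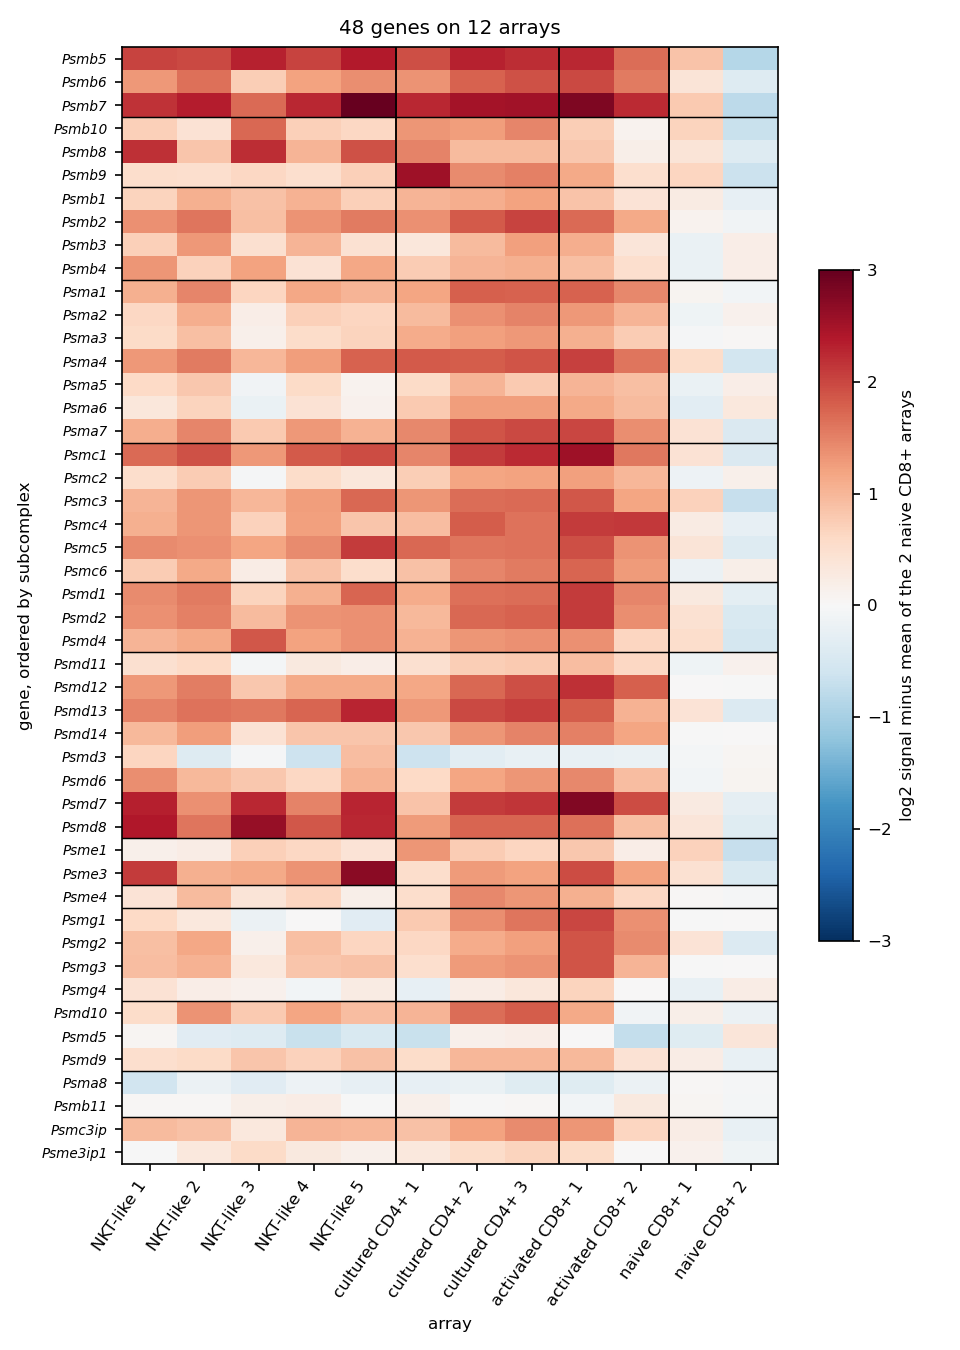
Log2 signal of the 48 genes on the 12 arrays, as the difference from the mean of the 2 naive arrays; lines separate the subcomplexes (rows) and the groups (columns). On the 10 stimulated arrays 40 to 46 genes lie above the naive mean, with array medians of 0.70 to 1.44, while the 2 naive arrays lie at medians of 0.19 and -0.19.

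The 3 constitutive catalytic subunits passed as higher in each stimulated group. Psmb7, the trypsin-like β2 subunit, had the highest fold change of the members in all 3 comparisons. It measured 11.30, 11.49, 10.83, 11.40 and 12.18 log2 in the NKT-like cultures, 11.38, 11.63 and 11.65 in CD4+ cultures, 11.93 and 11.37 in activated cells, and 9.91 and 8.35 in naive cells. Both naive arrays lay below all 10 others, but they were themselves far apart. The change was 4.95-fold in NKT-like (log2 2.31 ± 0.39, SE, q = 0.00093), 5.37-fold in CD4+ cultures (2.43 ± 0.43, q = 0.0012) and 5.75-fold in activated cells (2.52 ± 0.47, q = 0.0045). None of these passed without naive replicate 2, at 2.88-fold, 3.13-fold and 3.34-fold (q = 0.028, 0.021 and 0.044). Without naive replicate 1 they were 8.51-fold, 9.24-fold and 9.88-fold, and without activated replicate 1 the activated value was 4.74-fold (q = 0.040).

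Psmb5, the chymotrypsin-like β5 subunit, measured 11.33, 11.28, 11.61, 11.34 and 11.69 log2 in NKT-like, 11.23, 11.62 and 11.51 in CD4+ cultures, 11.56 and 10.97 in activated, and 10.16 and 8.45 in naive cells. Its 10 stimulated values spanned less than 1 log2 unit, and all exceeded the naive ones. The change was 4.43-fold in NKT-like (q = 0.00071), 4.44-fold in CD4+ cultures (q = 0.0012) and 3.89-fold in activated cells (q = 0.0082). In NKT-like and cultured CD4+ cells it passed whichever array was left out, between 2.45-fold and 7.98-fold and between 2.46-fold and 8.01-fold, the extremes being those without naive replicate 2 and without naive replicate 1. The activated value did not pass without naive replicate 2 (2.16-fold, q = 0.041) or activated replicate 1 (3.17-fold, q = 0.068), nor, with the fold unchanged, without cultured CD4+ replicate 2 or 3 or any 1 of the NKT-like arrays (q of 0.011 to 0.014). Without naive replicate 1 it was 7.02-fold.

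Psmb6, the caspase-like β1 subunit, changed less. It measured 10.41, 10.75, 9.84, 10.32 and 10.50 log2 in NKT-like, 10.46, 10.88 and 11.01 in CD4+ cultures, 11.09 and 10.66 in activated, and 9.49 and 8.72 in naive cells, again with no overlap. The change was 2.39-fold in NKT-like (q = 0.0026), 3.2-fold in CD4+ cultures (q = 0.00092) and 3.42-fold in activated cells (q = 0.0034). Psmb6 stood at 1.84-fold, 2.46-fold and 2.62-fold without naive replicate 2 (q = 0.085, 0.022 and 0.044), and without activated replicate 1 the activated value was 2.94-fold (q = 0.032).

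The interferon-inducible catalytic subunits passed for 1 of 3 genes in NKT-like, 1 of 3 in CD4+ cultures and 0 of 3 in activated cells. Psmb8, the inducible counterpart of Psmb5, measured 12.54, 11.19, 12.58, 11.37 and 12.28 log2 in NKT-like, 11.84, 11.31 and 11.30 in CD4+ cultures, 11.16 and 10.54 in activated, and 10.74 and 9.98 in naive cells. NKT-like replicates 1, 3 and 5 lay above every other array, while replicates 2 and 4 lay among the cultured CD4+ and activated values. It rose in NKT-like cells (3.10-fold, log2 1.63 ± 0.40, SE, q = 0.0058) and did not pass in CD4+ cultures (2.18-fold, q = 0.036) or activated cells (1.41-fold, q = 0.38). The NKT-like call was lost without either naive array (2.38-fold, q = 0.13 without replicate 2; 4.03-fold, q = 0.016 without replicate 1) and, narrowly, without NKT-like replicate 1, 3 or 5 (q of 0.010 to 0.012). A second, dimmer Psmb8 probe set, marked by the array design as matching several sequences, passed in all 3 groups, at 1.92-fold in NKT-like, 2.66-fold in CD4+ cultures and 1.97-fold in activated cells.

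Psmb9, the inducible counterpart of Psmb6, was almost level over the NKT-like cultures at 9.67, 9.65, 9.76, 9.65 and 9.85 log2. It measured 11.68, 10.55 and 10.65 in CD4+ cultures, 10.27 and 9.64 in activated, and 9.78 and 8.5 in naive cells. It rose in CD4+ cultures (3.53-fold, log2 1.82 ± 0.38, q = 0.0028), with all 3 cultures above the naive arrays, and did not pass in NKT-like (1.49-fold, q = 0.10) or activated cells (1.76-fold, q = 0.17), where naive replicate 1 lay within the range. The cultured CD4+ change was 2.27-fold without naive replicate 2 and did not pass (q = 0.054), and was 5.5-fold without naive replicate 1. Between the 2 kinds of culture these genes lay on opposite sides. Relative to CD4+ cultures, NKT-like cells had Psmb8 at 1.42-fold (q = 0.53) and Psmb9 at 0.422-fold (q = 0.037), and neither passed. The second Psmb8 probe set was at 0.721-fold in the same comparison.

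Psmb10, the inducible counterpart of Psmb7, passed in no comparison. It measured 10.14, 9.86, 11.15, 10.14 and 10.05 log2 in NKT-like, 10.74, 10.68 and 10.90 in CD4+ cultures, 10.17 and 9.52 in activated, and 10.08 and 8.76 in naive cells. Of the 10 stimulated arrays 7 lay above both naive arrays and 3 between them, and the folds were 1.79 (q = 0.052), 2.55 (q = 0.015) and 1.34 (q = 0.40) in NKT-like, cultured CD4+ and activated cells against naive cells. Side by side, the inducible and the constitutive catalytic subunits had medians of 1.79-fold and 4.43-fold in NKT-like cells, of 2.55-fold and 4.44-fold in CD4+ cultures, and of 1.41-fold and 3.89-fold in activated cells. Without naive replicate 2 these medians were 1.14-fold and 2.45-fold in NKT-like cells, 1.68-fold and 2.46-fold in CD4+ cultures, and 1.08-fold and 2.62-fold in activated cells, and without naive replicate 1 they were 2.83-fold and 7.98-fold, 4.02-fold and 8.01-fold, and 2.11-fold and 7.02-fold. The difference between these sets of 3 genes was not tested.

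**Figure D3:**
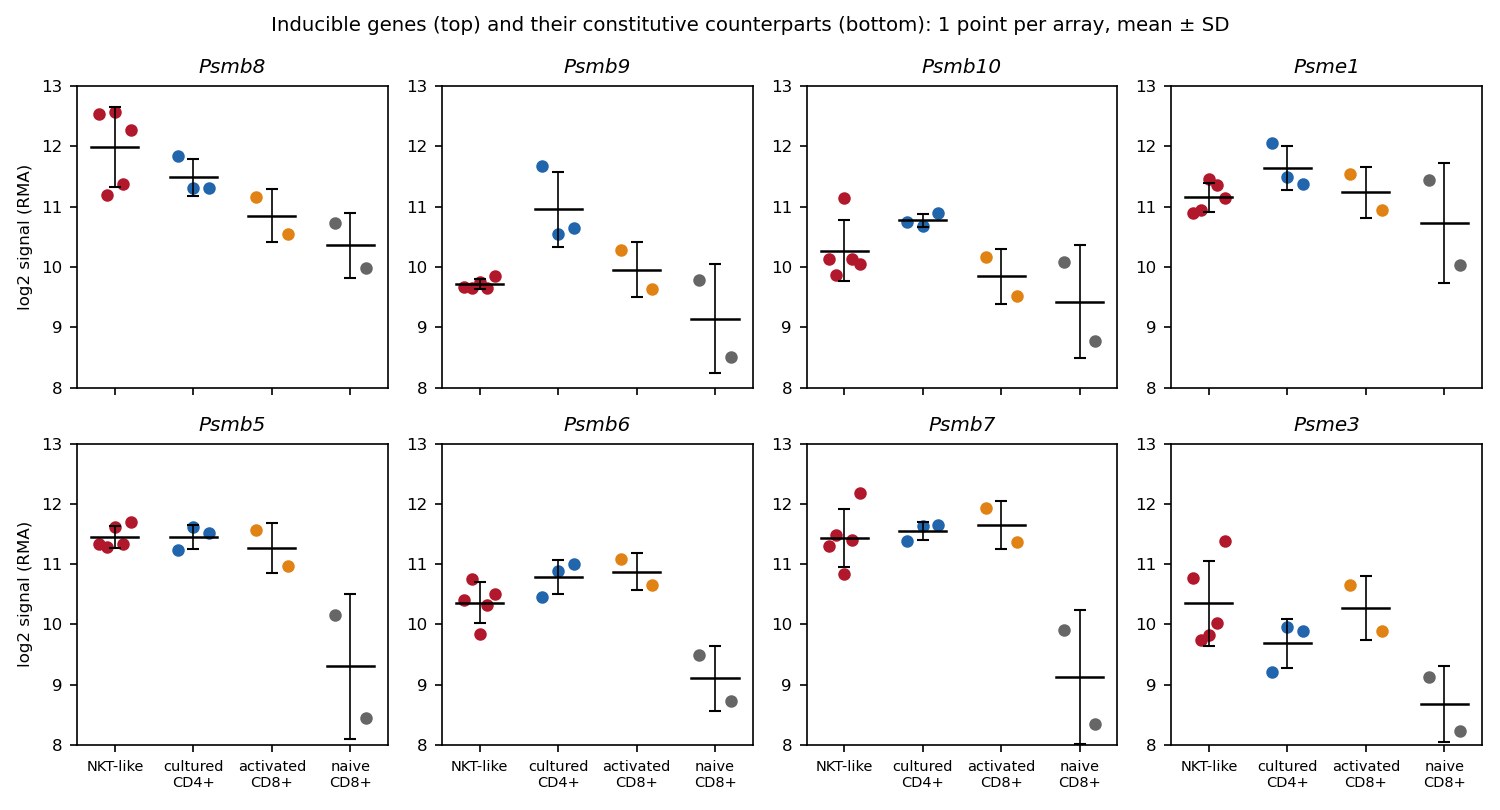
Log2 signal of Psmb8, Psmb9, Psmb10 and Psme1 (top) and of Psmb5, Psmb6, Psmb7 and Psme3 (bottom) on each array, with the mean and standard deviation of each group. In the bottom row the naive arrays lie below all stimulated arrays, whereas naive replicate 1 lies among them for Psmb9, Psmb10 and Psme1. For Psmb8 naive replicate 1 lies above activated replicate 2 and below the other stimulated arrays.

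Stretches around the start sites of 5 of these genes are shown because the constitutive subunits are known targets of stress-response factors and the inducible ones of interferon-activated factors. They come from RefSeq on GRCm38.p6, run from 250 bases before to 50 bases after the start, and are written 5′ to 3′ on the gene's strand. Capitals mark matches, on either strand, to the core of the antioxidant response element (TGACNNNGC), the interferon-stimulated response element (GAAANNGAA), the gamma-activated site (TTCNNNGAA) or the CCAAT box (CCAAT).
Psmb5 (chr14:54617946-54618245, - strand): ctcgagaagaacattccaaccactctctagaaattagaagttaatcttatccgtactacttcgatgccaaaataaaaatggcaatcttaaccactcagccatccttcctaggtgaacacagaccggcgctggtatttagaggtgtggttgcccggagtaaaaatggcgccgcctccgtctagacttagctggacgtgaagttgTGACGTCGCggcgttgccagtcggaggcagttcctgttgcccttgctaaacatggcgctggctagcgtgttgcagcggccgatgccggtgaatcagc
Psmb6 (chr11:70525107-70525406, + strand): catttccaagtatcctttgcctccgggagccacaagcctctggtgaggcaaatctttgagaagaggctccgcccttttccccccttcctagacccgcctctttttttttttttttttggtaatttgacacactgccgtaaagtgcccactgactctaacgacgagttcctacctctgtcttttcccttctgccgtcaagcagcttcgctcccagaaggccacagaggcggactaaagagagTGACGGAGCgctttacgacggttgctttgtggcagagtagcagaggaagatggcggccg
Psmb8 (chr17:34197945-34198244, + strand): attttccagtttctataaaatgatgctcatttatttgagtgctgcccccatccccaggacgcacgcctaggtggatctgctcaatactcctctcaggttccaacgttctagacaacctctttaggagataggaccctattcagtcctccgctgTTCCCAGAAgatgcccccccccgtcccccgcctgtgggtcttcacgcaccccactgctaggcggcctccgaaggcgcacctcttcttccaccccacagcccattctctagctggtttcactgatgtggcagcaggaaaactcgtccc
Psmb9 (chr17:34187281-34187580, - strand): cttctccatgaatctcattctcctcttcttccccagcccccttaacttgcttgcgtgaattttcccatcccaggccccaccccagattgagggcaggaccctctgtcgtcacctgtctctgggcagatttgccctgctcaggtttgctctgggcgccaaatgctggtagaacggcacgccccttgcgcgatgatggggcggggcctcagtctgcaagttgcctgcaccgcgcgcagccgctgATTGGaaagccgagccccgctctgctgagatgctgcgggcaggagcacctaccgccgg
Psme1 (chr14:55578244-55578543, + strand): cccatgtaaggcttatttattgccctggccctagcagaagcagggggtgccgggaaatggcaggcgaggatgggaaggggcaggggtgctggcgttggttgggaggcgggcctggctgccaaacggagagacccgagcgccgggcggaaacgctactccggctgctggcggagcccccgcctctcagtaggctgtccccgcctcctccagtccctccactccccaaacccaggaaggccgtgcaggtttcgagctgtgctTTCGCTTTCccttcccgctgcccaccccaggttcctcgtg

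Marked matches did not overlap within any of these windows. Psmb5 and Psmb6, both higher in all 3 stimulated groups, each held 1 antioxidant response element core, in capitals above. Psmb8 held 1 gamma-activated site, Psme1 1 interferon-stimulated element just after the start, and Psmb9, of the 4 marked patterns, a CCAAT box. Of the 48 genes, 40 had an entry in the promoter table, Psmb7 not among them. The antioxidant core was in 6 of the 40 (15.0%), against 16.1% of 14453 array genes with windows of the same length, and the gamma-activated site in 3 (7.5%, against 8.57%). The interferon-stimulated element was in 7 (17.5%, against 8.7%): Psmb3, Psmb4, Psmc2, Psmd4, Psmd9, Psme1 and Psmg4. The ETS core CCGGAAG was in 16 (40.0%, against 15.0%), the CCAAT box in 16 (40.0%, against 42.0%), the GC box GGGCGG in 23 (57.5%, against 57.3%) and the E-box CACGTG in 5 (12.5%, against 10.2%). TGACGTCA and GCTGAGTCA were in none of the 40, against 2.92% and 0.519%. The looser patterns TGANNNNGC and TTTCNNTTT were in 60.0% and 15.0%, against 47.1% and 10.2%. A longer spelling of the interferon-stimulated element and a pattern for κB sites were searched at first as well and are not shown. All patterns were chosen after the signals had been seen, some overlap in their letters, and a match is a string of letters and not a measured binding site.

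Psme1 and Psme3 encode PA28α and PA28γ, ring-shaped activators that open the core without ATP; PA28α pairs with the product of Psme2 and is interferon-inducible, and PA28γ is nuclear. Psme1 measured 10.90, 10.95, 11.45, 11.35 and 11.14 log2 in NKT-like, 12.06, 11.50 and 11.37 in CD4+ cultures, 11.54 and 10.94 in activated, and 11.43 and 10.03 in naive cells. Naive replicate 1 was as high as the stimulated arrays, and the folds of 1.34, 1.88 and 1.42 did not pass (q = 0.15, 0.04 and 0.32). Psme3 measured 10.77, 9.74, 9.83, 10.03 and 11.39 in NKT-like, 9.22, 9.96 and 9.89 in CD4+ cultures, 10.65 and 9.89 in activated, and 9.13 and 8.24 in naive cells. It rose in NKT-like cells (3.17-fold, q = 0.0087), with replicates 1 and 5 the highest, and did not pass in CD4+ cultures (2-fold, q = 0.066) or activated cells (3-fold, q = 0.054). The call was lost without either naive array (2.33-fold, q = 0.17 without replicate 2; 4.32-fold, q = 0.020 without replicate 1), without NKT-like replicate 1 or 4 and without cultured CD4+ replicate 2 or 3, and the other 2 Psme3 probe sets stood at 1.66-fold and 1.01-fold without passing.

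Among the 7 α subunits, 3 passed as higher in NKT-like, 6 in CD4+ cultures and 5 in activated cells, with medians of 1.57-fold, 2.42-fold and 2.24-fold. Psma4 changed most. It measured 11.44, 11.71, 11.13, 11.39 and 11.92 log2 in NKT-like, 11.98, 11.96 and 12.04 in CD4+ cultures, 12.20 and 11.74 in activated, and 10.69 and 9.60 in naive cells. All stimulated arrays lay above both naive ones, at 2.59-fold in NKT-like (q = 0.0021), 3.6-fold in CD4+ cultures (q = 0.00068) and 3.55-fold in activated cells (q = 0.0035). Without naive replicate 2 these were 1.77-fold, 2.46-fold and 2.43-fold (q = 0.062, 0.011 and 0.033), and without activated replicate 1 the activated value was 3.03-fold (q = 0.034). Psma3 in CD4+ cultures changed by 2.33-fold (q = 0.00049) and passed without any 1 array, between 2.27-fold and 2.41-fold. Psma5 was the α subunit that passed in no comparison, although its second probe set passed in CD4+ cultures (2.8-fold, q = 0.0014) and activated cells (2.79-fold, q = 0.0064).

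Of the 4 structural β subunits, which carry no active site, 3 passed in NKT-like, 3 in CD4+ cultures and 1 in activated cells. The gene that passed in all 3 groups was Psmb2. In CD4+ cultures it changed by 3.35-fold (q = 0.00033) and passed whichever array was left out, between 3.02-fold and 3.82-fold. Psmb3 did not pass on the probe set used, but a second probe set of the gene did, at 2.73-fold in NKT-like, 3.07-fold in CD4+ cultures and 2.75-fold in activated cells.

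The 6 ATPases of the 19S base, which form the ring that unfolds substrates, passed in 4 cases in NKT-like, 6 in CD4+ cultures and 5 in activated cells. Psmc1 measured 8.51, 8.73, 8.12, 8.67 and 8.77 log2 in NKT-like, 8.28, 8.93 and 9.06 in CD4+ cultures, 9.36 and 8.40 in activated, and 7.25 and 6.39 in naive cells. The groups did not overlap with the naive arrays, and the change was 3.34-fold in NKT-like (q = 0.0013), 3.82-fold in CD4+ cultures (q = 0.0012) and 4.17-fold in activated cells (q = 0.0039). Without naive replicate 2 these were 2.48-fold, 2.84-fold and 3.09-fold and did not pass (q = 0.046, 0.027 and 0.051), and the activated value was 2.99-fold without activated replicate 1 (q = 0.036). Psmc4 measured 9.82, 10.07, 9.44, 9.98 and 9.59 in NKT-like, 9.68, 10.57 and 10.38 in CD4+ cultures, 10.85 and 10.88 in activated, and 9.0 and 8.5 in naive cells, and so was highest in the activated cells, at 4.32-fold over naive (q = 0.00095; 3.64-fold, q = 0.015 without naive replicate 2). In CD4+ cultures it was at 2.75-fold (q = 0.0013; 2.32-fold, q = 0.029 without naive replicate 2). In NKT-like cells it was at 2.04-fold (q = 0.0049), a call lost without either naive array and without NKT-like replicate 1 or 4 (q of 0.010 to 0.12).

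All 3 other base subunits, Psmd1, Psmd2 and Psmd4, passed in NKT-like and cultured CD4+ cells and 2 of 3 in activated cells; Psmd4 is a receptor for ubiquitin chains. Of the 8 lid subunits, 6 passed in NKT-like, 6 in CD4+ cultures and 3 in activated cells. Psmd8 was the lid gene with the largest fold in NKT-like cells, where it measured 11.78, 10.97, 11.98, 11.23 and 11.63 log2, against 9.74 and 9.01 in naive cells. It measured 10.66, 11.11 and 11.13 in CD4+ cultures and 11.03 and 10.28 in activated cells. It changed by 4.42-fold in NKT-like (q = 0.0003) and 3.01-fold in CD4+ cultures (q = 0.0028), and did not pass in activated cells (2.43-fold, q = 0.029). The first was 3.43-fold (q = 0.014) and the second 2.34-fold (q = 0.055) without naive replicate 2, and the second was also lost without cultured CD4+ replicate 2 or 3 (q = 0.015 and 0.014).

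Psmd7, which pairs with the deubiquitinase Psmd14 in the lid, measured 8.57, 7.61, 8.49, 7.72 and 8.52 log2 in NKT-like, 7.09, 8.33 and 8.38 in CD4+ cultures, 9.02 and 8.20 in activated, and 6.51 and 5.96 in naive cells. NKT-like replicates 2 and 4 were the lower ones in both Psmd7 and Psmd8, as they were in Psmb8. The change of Psmd7 was 3.86-fold in NKT-like (q = 0.0025), 3.24-fold in CD4+ cultures (q = 0.0077) and 5.18-fold in activated cells (q = 0.0063). All 3 calls were lost without either naive array (without replicate 2, 3.19-fold, 2.68-fold and 4.28-fold, q = 0.064, 0.097 and 0.071), that in CD4+ cultures also without cultured CD4+ replicate 2 or 3 and that in activated cells without activated replicate 1 (3.90-fold, q = 0.058).

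Psmd12 measured 10.57, 10.80, 10.07, 10.40 and 10.40 log2 in NKT-like, 10.42, 10.98 and 11.20 in CD4+ cultures, 11.45 and 11.04 in activated, and 9.28 and 9.24 in naive cells. Its 2 naive arrays lay close together. The change was 2.28-fold in NKT-like (q = 0.0015), 3.05-fold in CD4+ cultures (q = 0.00047) and 3.97-fold in activated cells (q = 0.00082). The cultured CD4+ call was kept whichever array was left out, while that in NKT-like cells was lost without naive replicate 1 (q = 0.015) or 2 (q = 0.033) and that in activated cells without naive replicate 2 (q = 0.011). Psmd13 measured 9.09, 9.24, 9.19, 9.35 and 9.89 in NKT-like, 8.92, 9.59 and 9.69 in CD4+ cultures, 9.43 and 8.66 in activated, and 8.02 and 7.21 in naive cells. It rose 3.34-fold in NKT-like (q = 0.0011) and 3.45-fold in CD4+ cultures (q = 0.0015) and did not pass in activated cells (2.69-fold, q = 0.019). Neither passed without naive replicate 2 (2.52-fold and 2.6-fold, q = 0.041 and 0.035). The lid gene Psmd3 stood apart at 1.08-fold, 0.765-fold and 0.858-fold in NKT-like, cultured CD4+ and activated cells, none passing. Psmd11 also passed in no comparison with naive cells, although every cultured CD4+ and activated array lay above both naive ones. Its 8 probe sets ranged from 0.748-fold to 3.19-fold in NKT-like cells.

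Assembly chaperones build the particle and are not part of it once finished. Of 3 chaperones of the 19S base, 1 passed in NKT-like, 2 in CD4+ cultures and 0 in activated cells, and Psmd5 stood at 0.781-fold, 0.93-fold and 0.786-fold. Of the 4 chaperones that build the 20S core, 0 passed in NKT-like, 1 in CD4+ cultures and 2 in activated cells. Psme4, the PA200 activator, passed in CD4+ cultures (2.15-fold). Psmc3ip, a member by name, passed there too. Psmb11, the catalytic subunit of thymic cortical epithelium, lay between 5.55 and 5.94 log2 on all 12 arrays, and Psma8, an α subunit of the testis, between 5.37 and 5.99. Both sat at about the 22nd percentile of genes and passed in no comparison.

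The stimulated groups were then set against each other, with few calls. Between NKT-like and cultured CD4+ cells 0 of the 48 passed as higher (1.24% of all genes) and 0 as lower (1.85% of all genes). At an unadjusted p under 0.05, 0 were higher and 11 lower. By Benjamini-Hochberg adjustment of the limma p-values 0 passed, with 1.17% of all genes called higher and 1.75% lower. Between NKT-like and activated cells 0 passed as higher (3.36% of all genes) and 1 as lower (1.00% of all genes), with 2 higher and 13 lower at an unadjusted p under 0.05. Between cultured CD4+ and activated cells 0 passed as higher (1.53% of all genes) and 0 as lower (0.319% of all genes), with 4 higher and 1 lower at an unadjusted p under 0.05. The share of all genes at that unadjusted threshold is not given, so these unadjusted counts have no baseline and are not read as a result about the members. The medians of the 48 were 0.841-fold, 0.852-fold and 1.01-fold. The second turned with 1 array, at 1.03-fold without activated replicate 1 and 0.708-fold without activated replicate 2, and the third ran from 0.874-fold to 1.19-fold. The absence of calls does not show that the groups were alike, with 2 to 5 arrays in each.

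**Figure D4:**
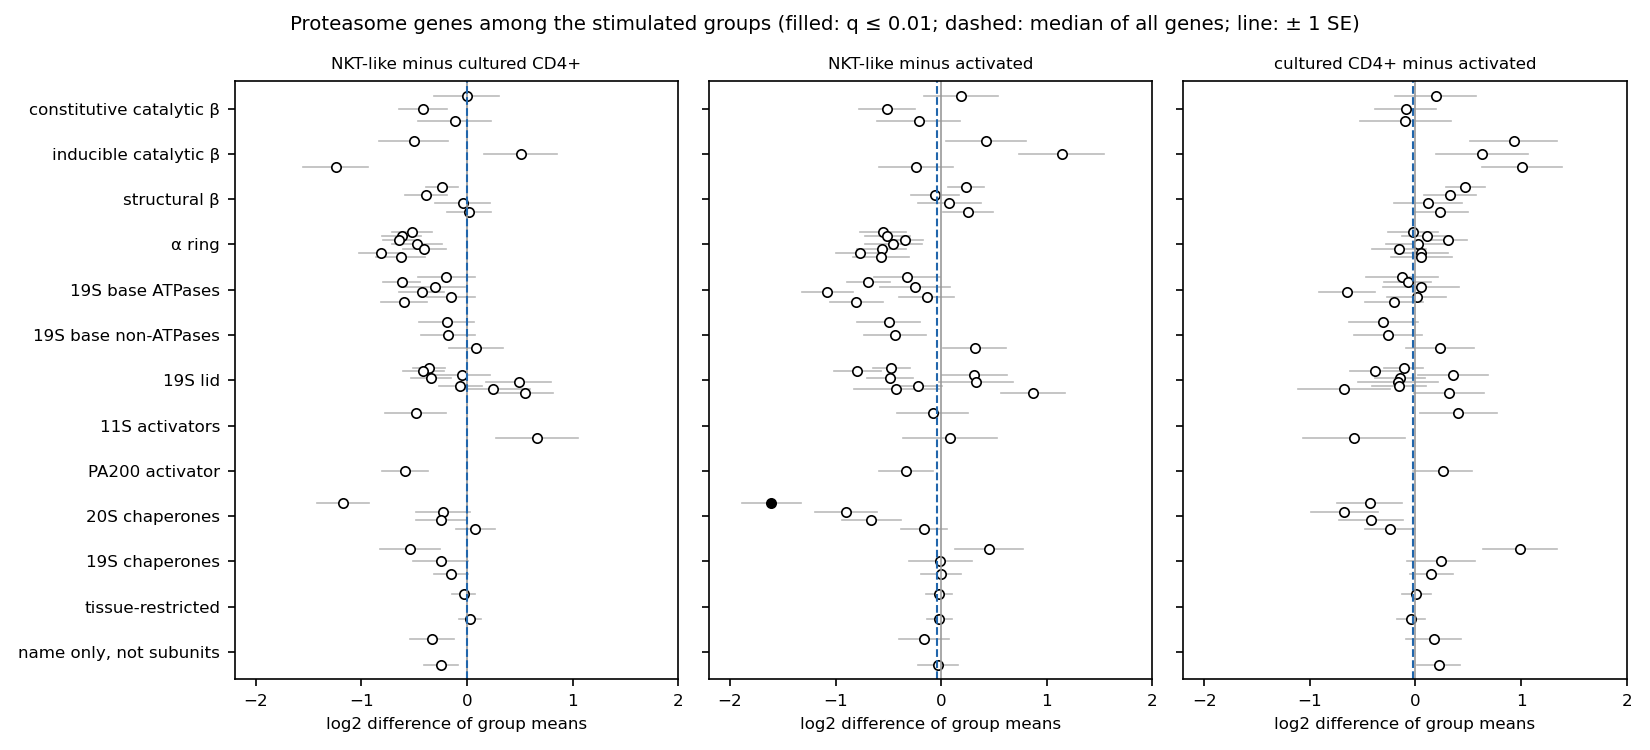
Log2 difference of group means for the 48 genes (points, with 1 standard error either side), by subcomplex, for NKT-like minus cultured CD4+, NKT-like minus activated CD8+ and cultured CD4+ minus activated CD8+ cells. The only filled point, at -1.61 in the middle panel, is Psmg1; the 7 α ring genes lie to the left of 0 in the first 2 panels.

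The gene that passed was Psmg1, a chaperone that pairs with Psmg2 to assemble the α ring. It measured 9.11, 8.83, 8.33, 8.53 and 8.15 log2 in NKT-like, 9.29, 9.90 and 10.11 in CD4+ cultures, 10.52 and 9.88 in activated, and 8.49 and 8.52 in naive cells. The NKT-like cultures lay around the naive arrays and below every cultured CD4+ and activated array. Psmg1 was lower in NKT-like than in activated cells (0.328-fold, log2 -1.61 ± 0.28, SE, q = 0.0044), and at 0.442-fold relative to cultured CD4+ cells (q = 0.017), which did not pass. The call was lost without either activated array (0.409-fold, q = 0.024 without replicate 1; 0.263-fold, q = 0.016 without replicate 2) and, narrowly, without NKT-like replicate 3 or 4 (q = 0.010 and 0.011). It was also lost when the 2 groups were fitted alone. Against naive cells Psmg1 was higher in CD4+ cultures (2.4-fold, q = 0.0059) and activated cells (3.24-fold, q = 0.0059) and at 1.06-fold in NKT-like cells (q = 0.35). The first of these calls was lost without either naive array or cultured CD4+ replicate 2 or 3, and the second without either naive array, activated replicate 1 or cultured CD4+ replicate 2 (q of 0.010 to 0.054).

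The α ring, whose assembly Psmg1 serves, lay lower in NKT-like cells in all 7 genes, with medians of 0.651-fold relative to cultured CD4+ and 0.684-fold relative to activated cells, and none of the 7 passed in either. This was not particular to the α ring: the base ATPases lay lower in 6 of 6 genes, at medians of 0.776-fold and 0.704-fold. Of all 48 genes 39 (81.2%) and 35 (72.9%) lay lower, where 51.1% and 56.2% of all genes did. Relative to activated cells this turned without activated replicate 1, when 25 of the 48 lay higher in NKT-like cells. Without activated replicate 1, 7 α ring genes (median 0.777-fold) but 3 ATPases (0.848-fold) lay lower than in activated cells. The lowest q among the 7 α ring genes was 0.027, for Psma3 at 0.638-fold relative to cultured CD4+ cells. The constitutive catalytic subunits stood at medians of 0.921-fold and 0.862-fold in the same comparisons. Psmc4 was at 0.473-fold relative to activated cells with no overlap and narrowly missed the threshold (q = 0.015).

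Other genes of the pathway were read from lists that do not share the naming rule. Their counts below are also against naive cells. Of all genes 10.7%, 11.6% and 4.43% were called higher in NKT-like, cultured CD4+ and activated cells. The shares called lower were 6.86%, 5.64% and 2.78%. The counts of these short lists were not tested against those shares. Of 8 further proteasome factors, 3 passed as higher in NKT-like, 2 in CD4+ cultures and 1 in activated cells, and 0 as lower. Uchl5, a deubiquitinase bound to the 19S cap, measured 10.56 to 11 log2 in NKT-like, 11.29 to 11.86 in CD4+ cultures, 11.85 and 11.55 in activated, and 9.39 and 9.0 in naive cells. Its changes of 3.19-fold (q = 0.000057), 5.4-fold (q = 0.00001) and 5.66-fold (q = 0.00005) passed whichever array was left out. Pomp, which matures the 20S core, rose 1.81-fold in NKT-like cells (q = 0.0088) and 2.93-fold in CD4+ cultures (q = 0.0007). The first call was lost without any 1 of 8 arrays and the second without naive replicate 2.

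Of 7 genes known to control proteasome genes, 4 passed as higher and 1 as lower in NKT-like, and 2 as higher in CD4+ cultures. In activated cells 0 passed, with differences from log2 -1.38 to 1.32. Vcp, the ATPase that extracts proteins from the endoplasmic reticulum, was at 3.59-fold in NKT-like cells (q = 0.0014; 2.57-fold, q = 0.051 without naive replicate 2). Nfe2l2, which encodes the oxidative stress factor Nrf2, was at 0.263-fold (q = 0.0062), a call lost without either naive array or NKT-like replicate 3. Nfe2l1, the factor best known for proteasome genes, was at 1.46-fold, 1.19-fold and 1.3-fold in NKT-like, cultured CD4+ and activated cells and did not pass.

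Of 11 genes of MHC class I antigen processing, 3 passed as higher in NKT-like, 3 in CD4+ cultures and 2 in activated cells. Canx and Calr encode chaperones of class I folding. Canx rose 2.18-fold, 2.23-fold and 2.05-fold in NKT-like, cultured CD4+ and activated cells, whichever array was left out, and Calr 2.29-fold and 1.95-fold in NKT-like and cultured CD4+ cells, the second not without naive replicate 2. The peptide transporter genes Tap1 and Tap2, whose loci adjoin Psmb9 and Psmb8, stood at 1.26-fold and 2.38-fold in NKT-like, 2-fold and 2.9-fold in CD4+ cultures, and 1.23-fold and 1.32-fold in activated cells, none passing.

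Of 10 interferon γ signalling genes, 2 were higher and 3 lower in NKT-like, 2 higher and 1 lower in CD4+ cultures, and 2 higher and 2 lower in activated cells. Those higher were Ifng and Irf8 in NKT-like and activated cells, and Ifng and Jak2 in CD4+ cultures. Those lower were Ifngr2, Jak2 and Irf1 in NKT-like, Jak1 in CD4+ cultures, and Ifngr2 and Jak1 in activated cells. Each lower call was lost without some single array. As single arrays were left out, Irf8 stood at 12.6-fold to 16.5-fold in NKT-like and 16.7-fold to 21.9-fold in activated cells. Ifng, the cytokine gene itself, measured 8.43, 11.52, 10.54, 7.85 and 11.80 log2 in NKT-like, 6.84, 11.65 and 11.52 in CD4+ cultures, 12.45 and 12.28 in activated, and 4.35 and 4.36 in naive cells. It passed in each stimulated group (51.2-fold, q = 0.0048; 50.3-fold, q = 0.0076; 259-fold, q = 0.0059), in none of them without either naive array, and not in CD4+ cultures without cultured CD4+ replicate 2 or 3 or NKT-like replicate 3, nor in activated cells without either activated array. The value in CD4+ cultures was 150-fold without cultured CD4+ replicate 1, 28.4-fold without replicate 2 and 29.8-fold without replicate 3. Jak2, a kinase of the receptor, was at 0.216-fold in NKT-like relative to cultured CD4+ cells (q = 0.000025), and Irf8, an interferon-regulated transcription factor, at 7.62-fold (q = 0.00016), both kept whichever array was left out. Of 3 other genes of the ubiquitin system, Rad23b, a shuttle of ubiquitinated proteins, passed in NKT-like (1.86-fold) and cultured CD4+ cells (1.73-fold), neither without either naive array.

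Of the 48 genes, 51 further probe sets were not used for the values above. Against naive cells 12 of them passed as higher in NKT-like, 15 in CD4+ cultures and 11 in activated cells and 0 as lower in any. Among the stimulated groups none passed. The share of all probe sets called is not given, so these counts have no baseline and are not read as a result about the members. Some of the 51 lay on the other side without passing. A dim Psma3 probe set stood at 0.848-fold in NKT-like, 0.787-fold in CD4+ cultures and 0.821-fold in activated cells (q = 0.09, 0.048 and 0.2), where the one used stood at 1.49-fold, 2.33-fold and 1.88-fold. A dim Psmb1 probe set stood at 0.996-fold, 1.06-fold and 0.826-fold (q = 0.4, 0.34 and 0.39), against 1.83-fold, 2.15-fold and 1.55-fold for the one used. One of Psmd4 was at 0.774-fold in NKT-like and 0.723-fold in CD4+ cultures (q = 0.037 and 0.023), against 2.5-fold and 2.36-fold. Why probe sets of a gene differ was not tested.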

How the data were processed

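The authors normalized the arrays with RMA (background correction, quantile normalization and a summary per probe set) and deposited log2 values, 1 per probe set and array. The sources used here do not give the RMA version, nor whether all 12 arrays were normalized together. The main analysis used these values unscaled. Signals of different probe sets were not compared with each other, since they depend on the probes. The number of arrays, not depth, limits the precision.

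Of 45101 probe sets 64 controls were left out, and limma 3.58.1 in R 4.3.3 (lmFit, contrasts, eBayes) fitted the 4 groups to all 45037 others, with 8 residual degrees of freedom. Groups and replicate numbers came from the sample labels, which call the groups expanded CD8, expanded CD4, stimulated CD8 and fresh CD8. The names NKT-like, cultured, activated and naive are those of the study. Storey q-values, calculated for each comparison over all probe sets with code tested on simulated data, had a threshold of 0.01. Where a gene had several probe sets, the one brightest on average across the 12 arrays stood for it. Of the tested probe sets 34945 carry 1 gene symbol, 932 several and 9160 none, by the platform annotation, and probe sets with several symbols name no gene. Fold changes were taken back to the linear scale from differences of log2 means.

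Genes with full values are the inducible members and their counterparts, the tissue-restricted members, and in each comparison up to 6 passing members of largest change in each direction whose groups did not overlap. The members and lists were chosen with earlier results of these data known. Alternatives tried were the 2 compared groups alone, Benjamini-Hochberg adjustment, a trended robust prior, quantile normalization, median centring, a filter that kept 25425 probe sets reaching 6.30 in at least 1 group, the mean over all probe sets of a gene, the replicate number as a block, leaving out each array, and, chosen after seeing the data, another choice of probe set.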

Additional observations from a re-analysis of the deposited data

Results flagged for a closer look

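Among the 5 NKT-like cultures, 1 array stood apart from the rest by Dixon's criterion for 3 of the 48 genes; chance flags about 1 group in 20. Psmb10 was at 11.15 log2 in NKT-like replicate 3, with the nearest of the other 4 at 10.135. Psmc5, an ATPase of the 19S base, was at 10.381 in NKT-like replicate 5, with the nearest at 9.707. Psmc3ip, which is no proteasome subunit, was at 7.285 in NKT-like replicate 3, with the nearest at 7.859. The change from naive cells differed between groups for Psmg1: NKT-like and activated cells stood at 1.06-fold and 3.24-fold, and the test of the difference itself gave 0.328-fold for NKT-like relative to activated cells (limma, q = 0.0044), a call that 1 array could undo, as described above.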

How the results depend on the processing

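No passing gene given with its values changed direction under the alternatives run. Against naive cells, the higher genes in NKT-like cells numbered 25 (10.7% of all genes). They numbered 15 after Benjamini-Hochberg adjustment (7.24%) and 13 after quantile normalization (9.08%). Those in CD4+ cultures numbered 33 (11.6%), against 21 after quantile normalization (9.2%). Those in activated cells numbered 21 (4.43%), against 0 with the 2 groups fitted alone (0.308%). Leaving out 1 array gave 1 to 27, 4 to 37 and 0 to 23 for these counts. The low ends of these ranges, without naive replicate 2, rest on 1 naive array. The shares of all genes then called higher fell as well and are given above. Relative to CD4+ cultures, the genes lower in NKT-like cells numbered 0 (1.85% of all genes). They numbered 1 after quantile normalization (2.17%), 1 with the filter on dim probe sets (3.16% of the genes kept) and 0 to 1 without 1 NKT-like or cultured CD4+ array (0.912% to 1.81%). Relative to activated cells they numbered 1 (1.00%), a call lost without some single arrays, as described above. They numbered 0 with the 2 groups fitted alone (0.478%), 2 after quantile normalization (2.47%) and 2 with the filter (1.84% of the genes kept). The cause of these shifts was not tested. Same-numbered arrays correlated between -0.501 and 0.28 in their deviations from group means. With 2 to 5 arrays in a group such deviations depend on each other, so these values cannot decide whether the numbers pair the arrays. With the replicate block the 3 counts against naive cells were 2, 7 and 1, with 2.14%, 4.06% and 0.77% of all genes called higher. That of NKT-like below activated cells was 0, with 0.132% of all genes called lower. With probe sets marked for several sequences used only where a gene has no other, a choice made after seeing the data, the counts against naive cells were 27, 33 and 22. Of all genes 11%, 11.6% and 4.35% were then called higher. An earlier form of that choice, corrected because it also set aside probe sets that match alternative transcripts of 1 gene, had read Psma3 and Psmb1 from the dim probe sets given above, which lie on the other side of 1 in some comparisons.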
